A study of Rattus norvegicus with 8 samples.

Results

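Cell cycle and DNA replication genes were examined in the liver of Zucker diabetic fatty rats, across genotype and testosterone treatment. The genes were Ccnd1, Ccne1, Ccne2, Ccna2, Ccnb1, Cdk1, Cdkn1a, Pcna, Mcm2 and Top2a. They were found as the non-control array probes whose transcript accession maps to 1 of these 10 symbols. Of the 10 genes 9 had a probe, with 17 probes in all out of 41012 on the array, and no accession on the array mapped to Top2a. A probe was kept for testing where the scanner marked it well above background in either dye on at least 4 of 8 arrays, which 15 of the 17 and 26945 of all probes did. The dimmer probes of Ccne1 and Ccne2 did not pass.

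The rats were males of 12 weeks, and total liver RNA was hybridised to 8 arrays with 2 dyes each. Of these, 4 carried lean Zucker diabetic fatty rats (fa/+) and 4 obese ones (fa/fa). The fa allele encodes a defective leptin receptor, and lean rats carry a copy of it as well. On every array, RNA of a vehicle control was labelled with Cy3 and RNA of a rat given testosterone undecanoate (TU, a long-acting testosterone ester) with Cy5. TU was injected subcutaneously at 20 mg/kg body weight for 4 weeks, every 3 days for the first 2 weeks and weekly afterwards. The 4 groups are thus lean vehicle, lean TU, obese vehicle and obese TU, with 4 samples each, labelled as biological replicates. No label says whether an RNA came from 1 animal or from a pool.

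Cells enter the division cycle from rest when D-type cyclins, with Cdk4 and Cdk6, relieve the block that retinoblastoma proteins place on E2F factors. Cyclin E with Cdk2 then starts DNA synthesis, cyclin A carries it into G2, and cyclin B with Cdk1 drives mitosis. Cdkn1a (p21) inhibits these kinases and is a classic p53 target. Hepatocytes of an adult liver rarely divide, and most cell cycle transcripts are therefore scarce in resting tissue.

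Promoters of late cell cycle genes are known for E2F sites, for a repressive element called CHR, and for CCAAT boxes that bind NF-Y. RefSeq promoters (build GRCr8) were found for 7 of the 10 genes, and the 250 bases before the start of transcription were searched. The words were TTTCCCGC, TTTGGCGC or TTTCGCGC for E2F, TTTGAA or TTCGAA for CHR, and CCAAT, on both strands. Words of different kinds did not overlap in the windows printed here. The windows of 3 genes are shown, with every match in capitals, because Cdk1 and Ccnb1 were higher in obese than in lean rats under TU while Mcm2 was not called. The windows, 5′ to 3′ on the gene's strand, are chr20:19265043-19265292 (plus strand) for Cdk1, chr2:33655226-33655475 (minus strand) for Ccnb1 and chr4:122918095-122918344 (minus strand) for Mcm2.
Cdk1: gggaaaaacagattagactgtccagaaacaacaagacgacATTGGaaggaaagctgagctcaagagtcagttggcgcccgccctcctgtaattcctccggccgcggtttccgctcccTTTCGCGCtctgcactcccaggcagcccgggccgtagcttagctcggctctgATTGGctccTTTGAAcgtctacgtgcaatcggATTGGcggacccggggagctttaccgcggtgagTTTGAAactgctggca
Ccnb1: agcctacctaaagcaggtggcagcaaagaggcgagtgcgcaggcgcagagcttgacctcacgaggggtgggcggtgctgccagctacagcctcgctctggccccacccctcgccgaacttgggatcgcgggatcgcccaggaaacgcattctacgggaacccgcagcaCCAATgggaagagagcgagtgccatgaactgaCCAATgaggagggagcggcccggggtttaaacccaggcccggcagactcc
Mcm2: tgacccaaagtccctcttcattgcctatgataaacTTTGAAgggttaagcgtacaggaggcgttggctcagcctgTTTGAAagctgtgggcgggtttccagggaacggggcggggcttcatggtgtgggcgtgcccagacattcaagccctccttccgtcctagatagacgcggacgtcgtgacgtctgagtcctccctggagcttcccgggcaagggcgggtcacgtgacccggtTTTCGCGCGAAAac
The Cdk1 window held 1 E2F word, 2 CHR words and 3 CCAAT boxes. The Ccnb1 window held 2 CCAAT boxes and no other word. The Mcm2 window held 2 E2F words, which overlap on opposite strands just before the start, and 2 CHR words. Pcna had 1 CCAAT box, Top2a 2 CHR words and 4 CCAAT boxes, and Ccne1 and Cdkn1a had no match in this window. Among all 33469 promoters of the table, 1.41% held an E2F word, 17.4% a CHR word and 34% a CCAAT box. A match is a description of the letters and not of a bound site.

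Between 58.0% and 68.9% of all probes lay well above background in Cy3 per array, and between 50.2% and 60.4% in Cy5. Of 10 hepatocyte markers, Alb and Apob among them, 0 lay below background on all arrays of a group. The SD of the log2 ratios was 0.46 on obese array 2 and 0.15 to 0.25 on the other arrays, so results are also given without that array where it matters. The 4 lean arrays were on a different slide from the 4 obese arrays, scanned apart, and thus slide and genotype cannot be told apart. No dye was exchanged, so within a genotype the TU effect and a dye effect cannot be told apart. Levels below are normalized log2 signals of a probe. They can be compared between samples of a probe but not between probes. In whole liver, fewer cells of a type and less RNA per cell cannot be told apart.

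The brightest probes of cyclins E1, A2, B1 and D1 read higher in obese than in lean vehicle rats. The second probes of B1 and D1 did not pass there, and the 2 Pcna probes moved in opposite directions. In Cy3, 7 of 15 probes passed the test at an adjusted p of 0.05 (limma, Benjamini-Hochberg over all 26885 probes tested), 6 higher and 1 lower in obese rats, from 5 genes. Over all probes 18.9% passed, 11.3% higher and 7.63% lower. Under TU, in Cy5, 9 of 15 probes passed, 7 higher and 2 lower, from 7 genes, where 23.1% of all probes passed, 14.2% higher and 8.92% lower. Of the 15 probes, 6 passed in both dyes in the same direction, 1 in Cy3 alone and 3 in Cy5 alone. All 15 had the same sign in both dyes, which share the 8 arrays. The median difference over the 15 probes was 0.34 in Cy3 and 0.31 in Cy5 (log2, obese minus lean), against 0.033 and 0.037 over all probes. Lean and obese values did not overlap for 8 probes in Cy3 and 11 in Cy5, where 29% and 28.8% of all probes did not. The dim second Ccna2 probe is among the higher calls and the non-overlapping probes in both dyes. It was kept through its obese arrays alone, with lean values at background, so it adds no support to these counts.

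The count in vehicle rats depended on single arrays. It was 3 without lean array 1, 4 without lean array 2 and 3 without lean array 4, 5 without lean array 3 or obese array 4, and 10 without obese array 2. Over all probes the number called in Cy3 fell from 5091 to between 2584 and 2744 when a lean array was left out. Under TU the count stayed between 8 and 10 of 15 without 1 array. Over all probes the number called in Cy5 went from 6211 to between 4157 and 9298. Of all probes called in Cy3, 3040 were higher and 2051 lower, against 2839 and 3201 with the scanner's processed signals and 950 and 2003 without normalization between arrays. In Cy5 the split was 3813 higher and 2398 lower, 3978 and 4103, and 1761 and 2183. With the processed signals the median of all probes moved from 0.033 to -0.076 in Cy3, while the median of the 15 cell cycle probes was 0.95. With them 7 of the 15 probes were higher and 2 lower in Cy3, and 8 and 3 in Cy5. The dim second probes of Ccna2, Ccnb1 and Cdkn1a are among these calls in both dyes. Each had a genotype mostly or wholly at background, so they add no support. Without normalization between arrays 3 were higher and 1 lower in Cy3, and 6 and 2 in Cy5.

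**Figure D1:**
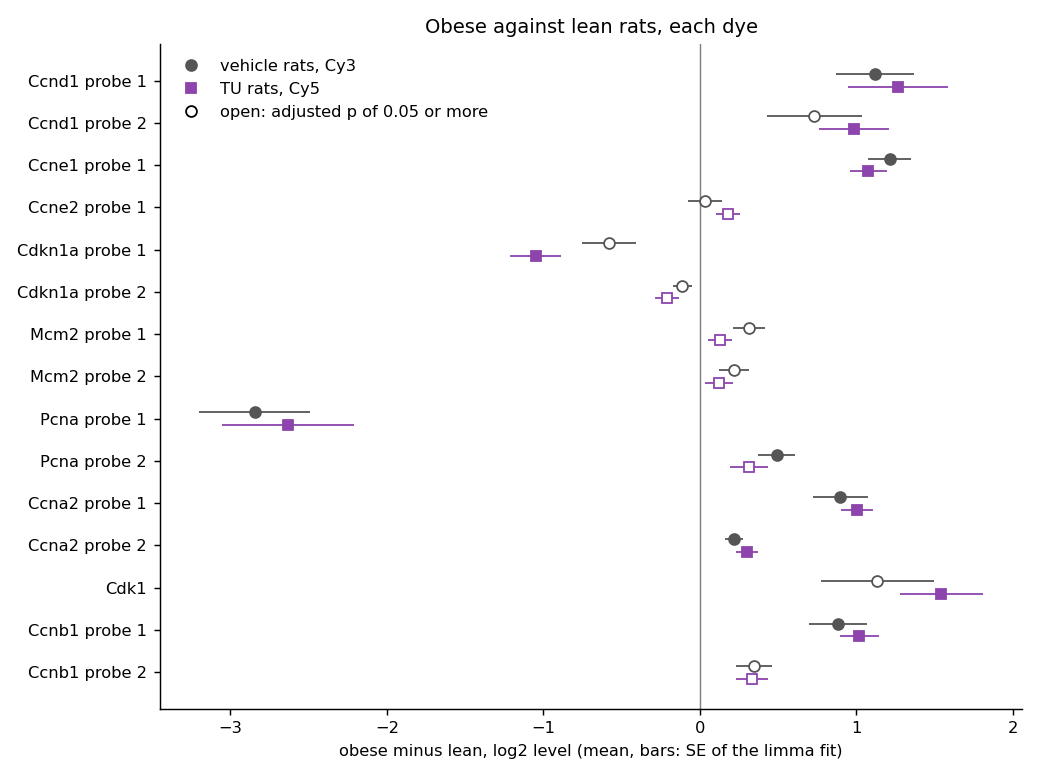
Obese minus lean difference in log2 level (x axis) for the 15 tested probes (y axis), as circles for vehicle rats (Cy3) and squares for TU rats (Cy5), with bars for the SE of the limma fit, as fitted also where a group lay below background. Filled symbols passed an adjusted p of 0.05; the cyclins and Cdk1 lie to the right of 0, Cdkn1a to the left, and the probes of Pcna on opposite sides.

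Ccnd1, the cyclin that couples growth signals to G1 progression, had 2 bright probes. For its brighter probe (A_44_P189299), lean vehicle levels were 9.95, 9.99, 10.87 and 10.10 and obese vehicle levels 10.96, 11.15, 11.73 and 11.54, for arrays 1 to 4. Lean array 3 was the highest of its group and lay just below the lowest obese array. The difference was 1.12 ± 0.25 (log2, SE of the fit), 2.17-fold, with an adjusted p of 0.0204 in limma. Under TU it was 1.27 ± 0.32, 2.41-fold (adjusted p = 0.024, limma). The second probe (A_44_P411505) gave 0.73 ± 0.30 in vehicle rats, where obese array 2 at 9.68 overlapped the lean values and the test was not passed (adjusted p = 0.13, limma). Without obese array 2 that difference was 1.00 (adjusted p = 0.02, limma). Under TU the second probe passed, at 0.98 ± 0.22 (adjusted p = 0.0162, limma). The vehicle call of the brighter probe was lost without lean array 1, 2 or 4, with adjusted p up to 0.121 over the alternatives in limma. Its TU call was lost without lean array 2 or obese array 4, and both calls were lost without normalization between arrays.

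Ccne1, whose protein activates Cdk2 at the start of S phase, had the smallest adjusted p of the genes in vehicle rats. Levels of its measured probe (A_44_P507571) were 6.48, 6.69, 6.82 and 6.54 in lean vehicle rats and 7.79, 7.52, 7.98 and 8.09 in obese vehicle rats. All obese values lay above all lean values by more than the spread within either group. The difference was 1.21 ± 0.14, 2.32-fold (adjusted p = 0.00159, limma). Under TU the lean levels were 6.86, 6.61, 6.70 and 6.56 and the obese ones 7.66, 7.64, 7.65 and 8.08. That is a difference of 1.08 ± 0.12, 2.11-fold (adjusted p = 0.000913, limma). The dimmer Ccne1 probe (A_44_P182412) was well above background on 2 of 4 obese and 0 of 4 lean arrays in Cy3. Where a group has 0 of 4 such arrays its level is background signal, so a fold against it is given as read and is no bound. As read, this probe was 1.08-fold higher in obese vehicle rats, without a test. Both calls of the measured probe held in each of the 20 alternatives tried per dye.

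Ccne2, the other cyclin E, stayed near background. Its measured probe (A_42_P836777) was well above background on 3 lean and 2 obese arrays in Cy3, and the difference was 0.032 ± 0.11 in vehicle rats (adjusted p = 0.867, limma). Under TU, 0 of 4 lean and 2 of 4 obese arrays measured it. Its signal as read was 1.13-fold higher in obese rats, with no call (adjusted p = 0.129, limma). Its dimmer probe (A_44_P272210) was above background on 1 array only.

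Ccna2, the S and G2 phase cyclin, was dim in lean rats and well above background on every obese array. For its brighter probe (A_44_P527480) lean vehicle levels were 6.11, 6.24, 6.30 and 6.19 and obese vehicle levels 7.23, 6.58, 7.15 and 7.48. The lowest obese value, on array 2, still lay above the highest lean value. The difference was 0.90 ± 0.18, 1.86-fold (adjusted p = 0.0131, limma). TU rats showed 5.96, 6.13, 6.18 and 6.05 when lean and 7.14, 6.99, 6.89 and 7.32 when obese, a difference of 1.00 ± 0.11 (adjusted p = 0.000734, limma). This probe was well above background on 4 of 4 lean arrays in Cy3 and on 2 of 4 in Cy5, which limits the TU size. The second probe (A_43_P15962) was well above background on 0 of 4 lean arrays in either dye, and it passed the filter through its obese arrays alone. Its tests therefore set obese values against background signal and add no support. As read, its signal was 1.16-fold higher in obese vehicle rats (adjusted p = 0.0351, limma). Under TU, with 1 of 4 obese arrays above background, it was 1.23-fold higher (adjusted p = 0.0177, limma). The vehicle call of this dim probe was kept in 9 of 18 alternatives, and was lost when any of the 4 lean arrays or obese array 3 or 4 was left out. Its TU call was lost without lean array 1 or 3 (adjusted p up to 0.0551, limma).

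Ccnb1, the mitotic cyclin whose promoter is printed above, followed the same order of groups. Its brighter probe (A_44_P534089) stood at 6.17, 6.25, 6.41 and 6.19 in lean vehicle rats and at 7.01, 6.68, 7.23 and 7.62 in obese vehicle rats. Lean and obese values did not overlap, and the difference was 0.88 ± 0.18, 1.84-fold (adjusted p = 0.0162, limma). Without lean array 1 or 4 the adjusted p rose to at most 0.0526 (limma). Under TU the levels were 5.996, 6.13, 6.35 and 6.31 against 6.94, 7.34, 7.19 and 7.39. This difference was 1.02 ± 0.12, 2.03-fold (adjusted p = 0.00128, limma), and was kept in all 20 alternatives. Of the lean TU arrays, 3 of 4 were well above background. The second probe (A_44_P325479), whose accession only the older annotation ties to Ccnb1, gave 0.34 ± 0.11 in vehicle rats (adjusted p = 0.0728, limma). Under TU it was above background on 3 of 4 obese and 0 of 4 lean arrays. Its signal as read was 1.26-fold higher in obese rats, with an adjusted p of 0.0505 in limma. Without obese array 1 this probe passed in both dyes, with adjusted p of 0.0289 and 0.00401 (limma). In Cy3 it was above background on 1 of 4 lean and 4 of 4 obese arrays, so its obese arrays alone met the filter. Its tests set obese values mostly or wholly against background signal and add no support.

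Cdk1, the kinase partner of cyclin B, spread more between obese vehicle rats than any cyclin did. Its probe (A_42_P580844) read 7.21, 7.85, 7.92 and 7.75 in lean vehicle rats and 9.60, 7.79, 9.01 and 8.85 in obese vehicle rats. Obese array 2 lay among the lean values and the other 3 obese arrays lay above all of them. The difference of 1.13 ± 0.36, 2.19-fold, did not pass (adjusted p = 0.0653, limma). Without obese array 2 it was 1.47 (adjusted p = 0.00681, limma). Under TU all obese levels, 9.75, 8.62, 8.54 and 8.54, lay above all lean ones, 7.30, 7.12, 7.33 and 7.52. That difference was 1.54 ± 0.27, 2.91-fold (adjusted p = 0.00541, limma). It was kept in all 20 alternatives.

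The offset of 50 added at background correction compresses differences of dim probes. With the scanner's processed signals, which carry no such offset and differ in background and normalization too, the obese minus lean difference of Cdk1 was 2.47 in Cy3 and 2.93 in Cy5. For the brighter Ccna2 probe it was 2.32 and 2.98. For the brighter Ccnb1 probe the values were 2.06 and 2.55, and for Ccne1 1.98 and 1.65. The direction was the same in each case and the size larger. In lean TU rats the brighter Ccna2 probe was well above background on 2 of 4 arrays and the brighter Ccnb1 probe on 3 of 4. Their Cy5 values here rest partly on background signal and are no measure of size. Ccnd1, which is bright, had differences of 0.95 and 1.22 for its brighter probe.

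**Figure D2:**
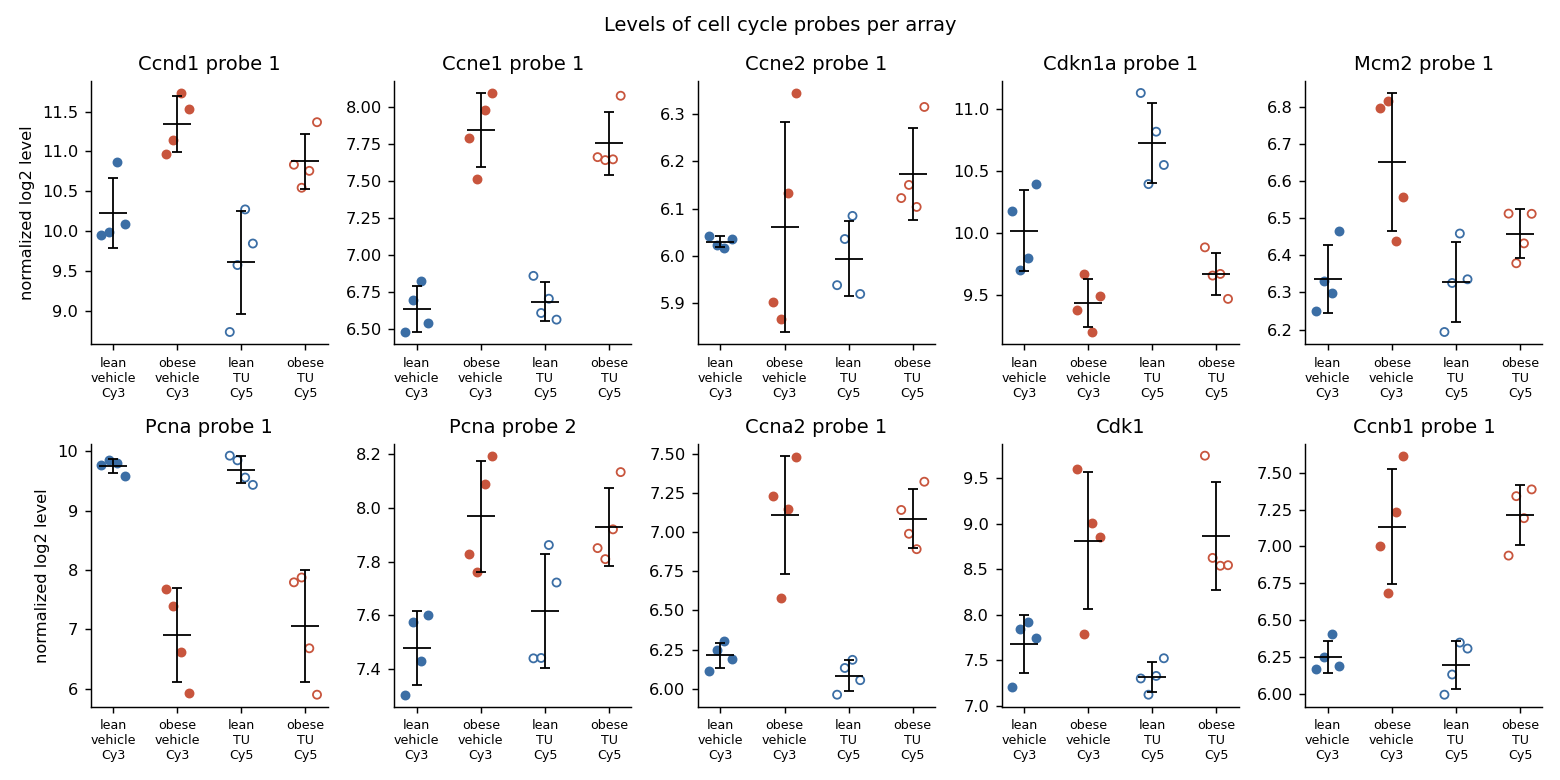
Normalized log2 level (y axis, its range differs between panels) per array for the brightest tested probe of each gene and the second Pcna probe, in the 4 groups (x axis; blue lean, red obese, filled vehicle, open TU), with the mean and SD of 4 arrays. Cdk1 on obese array 2 (7.79) sits among the lean vehicle values, and the bright Pcna probe spans 5.92 to 7.68 in obese vehicle rats against 9.58 to 9.85 in lean ones.

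Pcna, the sliding clamp of DNA polymerases, was measured by 2 probes that disagreed. The brighter one (A_44_P995132) read 9.77, 9.85, 9.80 and 9.58 in lean vehicle rats and 7.68, 7.39, 6.62 and 5.92 in obese vehicle rats. The difference was -2.85 ± 0.36, or 7.19-fold lower in obese rats (adjusted p = 0.00235, limma). Under TU the lean levels were 9.93, 9.85, 9.56 and 9.43 and the obese levels 7.79, 7.87, 6.68 and 5.90. That was -2.63 ± 0.42, 6.19-fold lower (adjusted p = 0.00391, limma). The log2 ratios of TU over vehicle on obese arrays 1 to 4 were 0.11, 0.48, 0.06 and -0.023. Obese arrays differed from each other by up to 1.76 log2 units in Cy3. On obese array 4 the probe was not well above background in either dye. With processed signals the differences were -4.01 in Cy3 and -3.68 in Cy5.

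The other Pcna probe (A_44_P242756) ran the opposite way. It read 7.31, 7.58, 7.43 and 7.60 in lean vehicle rats and 7.83, 7.76, 8.09 and 8.19 in obese vehicle rats, without overlap. Its difference was 0.49 ± 0.12, 1.41-fold higher in obese rats (adjusted p = 0.0265, limma). Under TU it was 0.31 ± 0.12, with overlapping groups and no call (adjusted p = 0.103, limma). The vehicle call was kept in 11 of 19 alternatives, and was lost with processed signals, without normalization between arrays, and without any 1 of the 4 lean arrays or obese array 3 or 4. Since the probes oppose each other, no direction is given for Pcna as a gene.

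Mcm2, a subunit of the replicative helicase that is loaded at origins before S phase, was dim. Its brighter probe (A_44_P415010) read 6.25, 6.33, 6.30 and 6.46 in lean vehicle rats and 6.80, 6.82, 6.44 and 6.56 in obese vehicle rats, with obese array 3 inside the lean range. The difference was 0.32 ± 0.10 (adjusted p = 0.0682, limma) in vehicle rats and 0.13 ± 0.076 under TU (adjusted p = 0.258, limma). The second probe (A_44_P223446) gave 0.22 ± 0.097 in vehicle rats. Under TU it was above background on 0 of 4 lean and 1 of 4 obese arrays, and its signal as read was 1.09-fold higher in obese rats (adjusted p = 0.365, limma). Neither probe passed in either dye, although without obese array 3 the vehicle difference of the brighter probe was 0.39 (adjusted p = 0.0326, limma).

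Cdkn1a, the kinase inhibitor p21, was lower in obese than in lean rats under TU. Its bright probe (A_44_P914438), spotted 10 times per array, read 10.18, 9.70, 9.80 and 10.39 in lean vehicle rats and 9.38, 9.67, 9.20 and 9.50 in obese vehicle rats. The groups did not overlap, but the difference of -0.58 ± 0.17 did not pass (adjusted p = 0.0525, limma). Without obese array 2 it was -0.66 and passed (adjusted p = 0.0417, limma). Under TU the lean levels were 11.13, 10.39, 10.81 and 10.55 and the obese levels 9.88, 9.66, 9.67 and 9.47. Here Cdkn1a was lower in obese rats by 2.07-fold, -1.05 ± 0.16 (adjusted p = 0.00367, limma), and this was kept in all 20 alternatives. On obese array 1, 1 of the 10 spots read 8 above background where the others read 392 to 683, and on lean array 1, 1 spot read 193 against 1182 to 1383 for the others. With the median of the spots in place of their mean the differences were -0.50 (adjusted p = 0.142, limma) and -0.99 (adjusted p = 0.0283, limma). The dim second probe (A_44_P515275) was above background on 4 of 4 lean and 0 of 4 obese arrays in Cy3, with a signal as read 1.08-fold lower in obese rats. It did not pass in Cy3 or in Cy5 (adjusted p = 0.237 and 0.0823, limma).

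No cell cycle probe passed the test for TU over vehicle in either genotype. In lean rats 0 of 15 probes passed in limma, where 0.989% of 26887 probes did, and 4 of the 15 and 16.5% of all had an unadjusted p under 0.05. In obese rats 0 of 15 passed, where 0.026% of 26943 probes did, and again 4 had an unadjusted p under 0.05, against 17.4% of all. The obese minus lean difference in response, in which a constant dye effect cancels, passed for 0 of 15 probes and for 0% of all 26885, with 1 of the 15 and 9.45% of all at an unadjusted p under 0.05. Among the alternatives, lean rats gave up to 3 calls of the 15, with array weights, obese rats gave 0 in each, and the difference gave 0 in each.

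Ccnd1 was below vehicle on all 4 lean and all 4 obese arrays with both probes, although the second probe was near 0 on obese array 2 (-0.0059). A shared sign does not tell a TU effect from a dye effect, since no dye was exchanged. The log2 ratios of TU over vehicle for the brighter probe were -1.22, -0.41, -0.60 and -0.25 on lean arrays 1 to 4 and -0.13, -0.60, -0.98 and -0.17 on obese arrays 1 to 4. Their means were -0.62 ± 0.17 (adjusted p = 0.122, limma) and -0.47 ± 0.17 (adjusted p = 0.23, limma). The second probe gave -0.65 ± 0.17 in lean rats (adjusted p = 0.102, limma) and -0.40 ± 0.17 in obese rats (adjusted p = 0.27, limma). The difference between genotypes was 0.15 ± 0.24 and 0.25 ± 0.24 for the probes, with no call. Without obese array 2, whose spread the lean test shares, the lean value of the second probe had an adjusted p of 0.0371 in limma.

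Cdkn1a lay above vehicle on all 4 lean arrays, with log2 ratios of 0.95, 0.69, 1.02 and 0.15 for the bright probe. On the obese arrays the ratios were 0.50, -0.012, 0.47 and -0.026, 2 of them near 0. The lean mean was 0.70 ± 0.15, 1.63-fold, with the smallest adjusted p of the 15 probes (0.0611, limma), and the obese mean was 0.23 ± 0.15 (adjusted p = 0.422, limma). The obese minus lean difference in response was -0.47 ± 0.21 (adjusted p = 0.524, limma), which did not pass. The lean value passed in 5 of 22 alternatives, among them those without lean array 4 or without obese array 2 (adjusted p = 0.0224, limma). The dim probe had a mean of 0.18 ± 0.057 in lean rats, and its obese vehicle level was above background on 0 of 4 arrays.

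**Figure D3:**
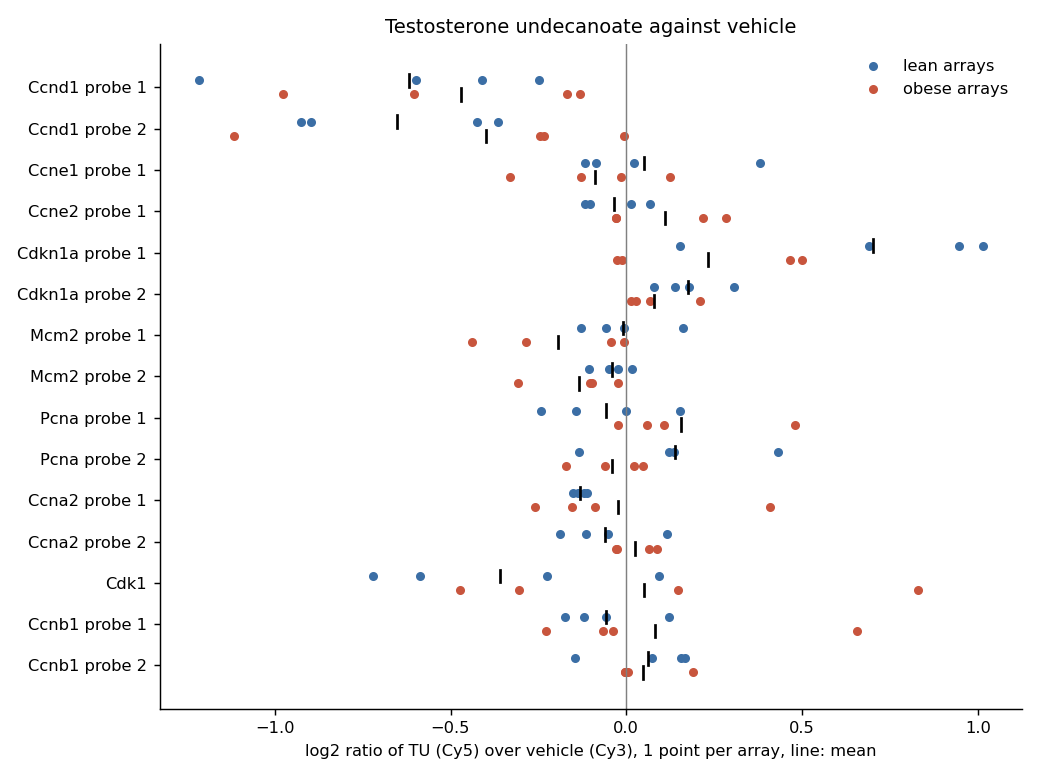
Log2 ratio of TU over vehicle (x axis) for the 15 tested probes (y axis), 1 point per array with lean in blue and obese in red, dim probes below background included, and a black line at each mean. Both Ccnd1 probes lie below 0 on all 8 arrays, the second at only -0.0059 on obese array 2. The highest obese points of Cdk1 (0.83), Ccnb1 (0.66) and Ccna2 (0.41) are all from obese array 2.

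No probe of Cdk1, Ccnb1 or Ccna2 passed for TU over vehicle. Cdk1 had log2 ratios of 0.093, -0.72, -0.59 and -0.22 on the lean arrays and 0.15, 0.83, -0.47 and -0.31 on the obese arrays. The lean mean was -0.36 ± 0.20 (adjusted p = 0.423, limma) and the obese mean 0.05 ± 0.20 (adjusted p = 0.912, limma). On obese array 2 alone Cdk1, the brighter Ccnb1 probe and the brighter Ccna2 probe stood at 0.83, 0.66 and 0.41, where the other 3 obese arrays lay between -0.47 and 0.15. Without that array the obese means were -0.21 for Cdk1, -0.11 for Ccnb1 and -0.17 for Ccna2, in place of 0.05, 0.081 and -0.024. The brighter Ccna2 probe was below 0 on all 4 lean arrays, -0.15, -0.11, -0.12 and -0.14, with a mean of -0.13 ± 0.095 (adjusted p = 0.559, limma).

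The remaining probes were not called for TU over vehicle either. Ccne1 gave 0.05 ± 0.096 in lean and -0.088 ± 0.096 in obese rats, and Ccne2 0.11 ± 0.069 in obese rats, where 2 of 4 arrays measured it in each dye. Mcm2 was below vehicle on all 4 obese arrays with both probes, at -0.19 ± 0.081 (adjusted p = 0.267, limma) and -0.13 ± 0.057 (adjusted p = 0.275, limma). On obese array 3 the ratios were near 0, at -0.0051 and -0.023. The second Mcm2 probe was above background on 1 of 4 obese TU arrays. In lean rats the brighter Mcm2 probe was at -0.0081 ± 0.081. The Pcna probes gave -0.059 ± 0.091 and 0.14 ± 0.084 in lean rats, and 0.16 ± 0.091 and -0.041 ± 0.084 in obese rats. The dim second Ccna2 probe was above background on 0 of 4 lean arrays in either dye. Its lean ratio of -0.059 ± 0.059 (adjusted p = 0.692, limma) therefore compares background signals.

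Other genes of the same machinery were read from 6 lists, each gene by its brightest passing probe, and the 10 genes above left out. Of the list of G2 and mitosis genes 26 were tested. In vehicle rats 11 were higher and 1 lower in obese rats, with a median difference of 0.45, and under TU 13 were higher and 1 lower, with a median of 0.46. Over all probes the medians were 0.033 and 0.037, and 11.3% and 14.2% were higher. Espl1 (separase, which cleaves cohesin) differed by 1.05 ± 0.17 in Cy3 (adjusted p = 0.00633, limma) and 1.05 ± 0.12 in Cy5. Ube2c, an E2 enzyme of the anaphase-promoting complex, gave 0.97 ± 0.17 and 1.03 ± 0.20, and Kif20a, a kinesin of cytokinesis, 0.93 ± 0.21 and 1.01 ± 0.12. Bub3, a spindle checkpoint protein, was higher by 0.94 ± 0.16 in Cy3, and its mean TU levels were 9.72 in lean and 10.56 in obese rats. Foxm1, a transcription factor of G2 and M genes, was higher by 0.98 ± 0.16 in Cy5 (adjusted p = 0.00416, limma). Its mean vehicle levels were 6.97 in lean and 7.86 in obese rats. The 1 lower gene was Nek2 in both dyes, a centrosomal kinase, at -0.37 ± 0.10 and -0.56 ± 0.11. It was above background on 4 of 4 lean and 1 of 4 obese arrays in each dye, so its lean arrays alone met the filter. Its tests therefore set lean values mostly against background signal, which limits these sizes, and its calls add no support. In vehicle rats the count of higher genes was 6 without lean array 1 or lean array 2, 7 without lean array 4, and 15 without obese array 2. In the same order, calls over all probes in either direction went from 5091 to 2744, 2711, 2615 and 6173. The Cy3 call of Nek2 was lost without any 1 array other than obese array 1. The Cy3 call of Kif20a was lost without lean array 1, 2 or 4 (adjusted p up to 0.063, limma).

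Of 31 tested genes of origin licensing and the replication fork, 5 were higher and 1 lower in obese vehicle rats, with a median of 0.10 against 0.033 over all probes, of which 11.3% were higher and 7.63% lower. Under TU 2 were higher and 0 lower, with a median of 0.028 against 0.037 over all probes, of which 14.2% were higher and 8.92% lower. Pold1, the catalytic subunit of polymerase delta, gave 0.51 ± 0.073 in Cy3 (adjusted p = 0.00414, limma) and 0.51 ± 0.12 in Cy5 (adjusted p = 0.0204, limma). Pole, of polymerase epsilon, gave 0.40 ± 0.078 and 0.32 ± 0.07, and Lig1, which joins Okazaki fragments, 0.36 ± 0.09 in Cy3. Rpa3, a subunit of the single-strand binding protein, was lower, at -0.68 ± 0.18 (adjusted p = 0.0366, limma). The vehicle calls of Lig1 and Rpa3 were lost without any 1 lean array or without obese array 4, with adjusted p up to 0.515 and 0.095 over all alternatives in limma, and that of Rpa3 also without obese array 3. The TU call of Pold1 was lost without lean array 4. The count of higher genes was 3 without lean array 1 or 3 in Cy3, and 5 without obese array 1 in Cy5. With the same arrays left out, calls over all probes in either direction went from 5091 to 2744 and 2584 in Cy3. In Cy5 they went from 6211 to 9298. Of the 7 genes of nucleotide supply for S phase, 0 passed in Cy3 in limma, where 18.9% of all probes did, and 2 were higher in Cy5, where 14.2% were. Dut, a dUTPase, was higher by 0.86 ± 0.12 in Cy5, with 0.46 ± 0.15 in Cy3. Dck, deoxycytidine kinase, was above background on 0 of 4 lean TU arrays. Its signal as read was 1.18-fold higher in obese rats in Cy5, with 0.16 ± 0.08 in Cy3. Dut passed in Cy3 without obese array 2, and the Cy5 call of Dck was lost without any 1 lean array or obese array 3 or 4 (adjusted p up to 0.0698, limma). A second probe of Rrm2, a ribonucleotide reductase subunit, was higher by 0.38 in Cy3 (adjusted p = 0.0429, limma), and passed in Cy5 with 0 of 4 lean and 3 of 4 obese arrays above background, while its brightest probe was not called.

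Among 10 G1 cyclins, kinases and pocket proteins, 2 were higher and 1 lower in obese vehicle rats, where 18.9% of all probes passed, and 2 were higher and 3 lower under TU, where 23.1% did. Cdk4, the partner of cyclin D1, was higher by 0.96 ± 0.25 in Cy3 (adjusted p = 0.0347, limma) and 0.70 ± 0.11 in Cy5 (adjusted p = 0.00317, limma). Rb1, the retinoblastoma protein that restrains E2F, was higher by 0.72 ± 0.12 and 0.80 ± 0.12. Its relative Rbl2, an E2F repressor of resting cells, was lower, at -0.76 ± 0.21, in Cy3 (adjusted p = 0.0426, limma), while its other probe gave -0.21 (adjusted p = 0.453, limma). A second Rb1 probe gave 0.27 in Cy3 (adjusted p = 0.0598, limma). The vehicle calls of Cdk4 and Rbl2 were lost without any 1 lean array or without obese array 4, with adjusted p up to 0.129 and 0.108 over all alternatives in limma, and that of Rbl2 also without obese array 3. Under TU, Myc, a growth-promoting transcription factor, was lower, at -1.16 ± 0.26, as were Ccnd3, another D-type cyclin, at -0.90 ± 0.15, and Rbl2. In vehicle rats Myc and Ccnd3 gave -0.82 ± 0.32 and -0.66 ± 0.22 (adjusted p = 0.113 and 0.0744, limma). The other Rbl2 probe gave -0.18 under TU (adjusted p = 0.492, limma). Of 6 kinase inhibitors 0 passed in Cy3 in limma and 1 was lower in Cy5, where 8.92% of all probes were. This was Cdkn1c (p57), at -0.75 ± 0.18 (adjusted p = 0.0181, limma), with -0.74 ± 0.22 in Cy3 (adjusted p = 0.0518, limma). The Cy5 call was lost without lean array 1, 2 or 4 (adjusted p up to 0.0553, limma), and the Cy3 value passed without obese array 1. The other 3 Cdkn1c probes passed in both dyes, all lower. Cdkn2b gave 0.23 ± 0.12 in Cy3, and passed there without obese array 1.

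Of 18 p53 targets other than Cdkn1a, 5 were higher and 0 lower in obese vehicle rats, with a median of 0.32 against 0.033 over all probes, of which 11.3% were higher and 7.63% lower. Under TU 5 were higher and 2 lower, with a median of 0.15 against 0.037 over all probes, of which 14.2% were higher and 8.92% lower. Zmat3, a p53-induced RNA-binding protein, was higher by 0.81 ± 0.13 in Cy3 (adjusted p = 0.00666, limma) and 1.07 ± 0.10 in Cy5 (adjusted p = 0.000557, limma). Ccng1 (cyclin G1) gave 0.70 ± 0.20 and 0.69 ± 0.096, and both of its probes were higher. Sesn2, a stress-induced sestrin, and Plk2, a polo-like kinase, were higher in Cy3 by 0.54 ± 0.15 and 0.54 ± 0.15. Under TU the death receptor Fas was higher by 0.66 ± 0.20 and Gadd45g, a growth arrest gene, was lower, at -1.54 ± 0.46, with mean vehicle levels of 10.53 in lean and 9.63 in obese rats. A second Fas probe gave 0.17 (adjusted p = 0.21, limma). The count of higher genes was 2 in Cy3 without any 1 lean array or obese array 4, and 7 without obese array 2. In Cy5 it was 2 without lean array 1, lean array 2 or obese array 4, and 3 without lean array 4 or obese array 3. The calls of Ccng1, Sesn2 and Plk2 in Cy3 and of Fas and Gadd45g in Cy5 were among those lost, with adjusted p up to 0.125, 0.166, 0.411, 0.205 and 0.11 over all alternatives in limma. With the same arrays left out, calls over all probes in either direction went from 5091 in Cy3 to between 2584 and 4201, and to 6173 without obese array 2. Those in Cy5 went from 6211 to between 4157 and 5168.

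**Figure D4:**
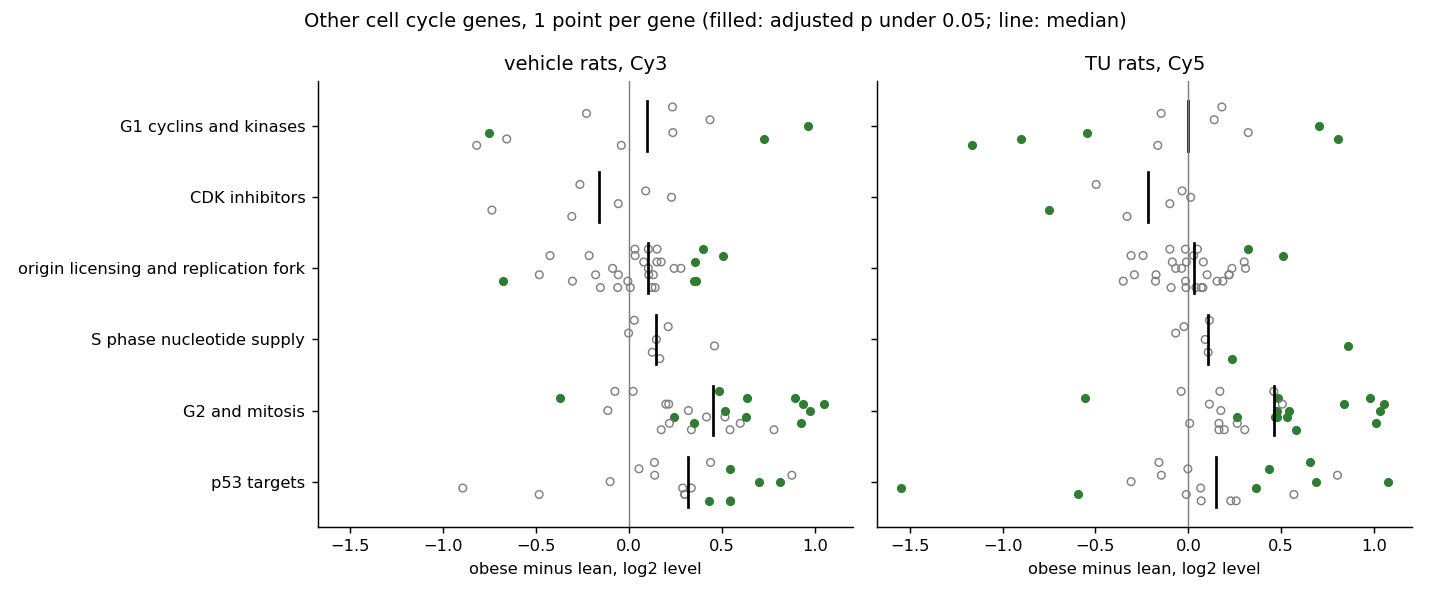
Obese minus lean difference in log2 level (x axis) of each tested gene of the 6 lists (y axis), in vehicle rats (left, Cy3) and TU rats (right, Cy5); points are filled where the adjusted p was under 0.05 and a black line marks the list's median. The G2 and mitosis list has its median at 0.45 and 0.46, and its lower filled point is Nek2, which was mostly at background in obese rats.

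No gene of the 6 lists passed for TU over vehicle in either genotype or in the difference between genotypes in limma, where 0.989%, 0.026% and 0% of all probes did. The lowest unadjusted p values among kinase inhibitors were those of Cdkn1c (0.42 ± 0.097) and Cdkn2d (0.32 ± 0.083) in lean rats and of Cdkn1c (0.41 ± 0.097) and Cdkn2b (-0.11 ± 0.071) in obese rats. Among G1 genes they were those of Ccnd2 (-0.25 ± 0.081) and E2f6 (-0.19 ± 0.079) in lean rats, and Ccnd2 (-0.37 ± 0.081) and Rbl2 (0.45 ± 0.15) in obese rats. For G2 and mitosis the genes were Nek2 (0.25 ± 0.06) and Pttg1 (0.49 ± 0.14) in lean rats, and Ccnb2 (-0.13 ± 0.059) and Mybl2 (-0.11 ± 0.053) in obese rats. For replication they were Rpa3 (-0.43 ± 0.097) and Prim2 (0.15 ± 0.048) in lean rats, and Lig1 (-0.31 ± 0.089) and Mcm4 (-0.20 ± 0.058) in obese rats. In the nucleotide list, Rrm2 (0.12 ± 0.059) and Tk1 (0.088 ± 0.075) led in lean rats and Dut (0.37 ± 0.12) and Tk1 (-0.15 ± 0.075) in obese rats. Among p53 targets, Mdm2 (0.38 ± 0.09), the ligase that degrades p53, and Gadd45g (0.91 ± 0.28) led in lean rats, and Tp53inp1 (0.33 ± 0.087) and Sesn2 (-0.35 ± 0.14) in obese rats. Of these genes Cdkn1c, Cdkn2d, Nek2, Pttg1, Rpa3 and Mdm2 passed in lean rats without obese array 2. In lean rats 11 of the 18 p53 targets lay above 0, with a median of 0.053 against -0.017 over all probes.

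For the obese minus lean difference in TU response, the genes with the lowest unadjusted p were Cdkn2b (-0.22 ± 0.1, with 0 of 4 lean TU arrays above background) and Cdkn2d (-0.23 ± 0.12) among inhibitors and E2f1 (-0.30 ± 0.12) and Ccnd3 (-0.24 ± 0.15) among G1 genes. They were Cdc20 (-0.24 ± 0.10) and Cdc25b (-0.59 ± 0.27) in G2 and mitosis, and Rpa3 (0.50 ± 0.14) and Prim2 (-0.20 ± 0.069) in replication. In the nucleotide list they were Dut (0.40 ± 0.17) and Tk1 (-0.23 ± 0.11), and among p53 targets Ccng2 (-0.28 ± 0.14) and Bax (-0.17 ± 0.088). The smallest adjusted p of these was 0.442 in limma, for Rpa3.

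The gene profile most like that of Cdk1, the member with the largest variance (0.70) over the 16 channel values among those measured everywhere, was that of Ube2c, with a Pearson r of 0.968 over the 16 values. Next came Cenpt (0.959), a centromere protein, then Ubqln1 (0.951), Scamp2 (0.948) and Mpped1 (0.947). The 16 values share 8 arrays and 2 genotypes, so the coefficient is a description.

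Of 10 hepatocyte markers 3 were higher and 0 lower in obese vehicle rats, and 3 were higher and 2 lower under TU, where 18.9% and 23.1% of all probes passed, with summed normalized signals of 859040 to 936340 and 820370 to 1081400 in vehicle rats. Some markers of other cell types also differed between genotypes, and their part in the cell cycle results was not tested. Over all probes 11.3% were higher and 7.63% lower in obese vehicle rats, and 14.2% and 8.92% under TU. Of 8 stellate cell markers 2 were higher and 1 lower in obese vehicle rats and 4 and 1 under TU. Their summed signal was 9493 to 11409 in lean and 10443 to 17237 in obese vehicle rats, and 8559 to 8758 and 11934 to 28313 under TU. Of 8 lymphocyte markers 0 were higher and 3 lower in either dye, with sums of 1049 to 1194 and 697 to 915 in vehicle rats and 1076 to 1231 and 737 to 951 under TU. Of 6 endothelial markers 1 was lower in vehicle rats and 3 under TU. Tek is among them in both dyes and was above background on no obese array, so its calls add no support. Sums of the 6 markers were 9945 to 11441 and 8102 to 12350 in vehicle rats. Of 10 Kupffer cell and macrophage markers 0 passed in vehicle rats in limma, and 1 was higher and 2 lower under TU, with sums of 40270 to 53639 and 38636 to 59422 in vehicle rats. Of 5 erythroid markers 1 was lower under TU. Their sums overlapped, at 2652 to 6890 in lean and 6076 to 31508 in obese vehicle rats, and 6034 to 12069 and 6574 to 9138 under TU. Cholangiocyte and neutrophil lists, with 3 and 2 tested genes, had no call in limma.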

How the data were processed

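Spot and local background intensities in 2 dyes were deposited as scanner output of Agilent Feature Extraction 10.7.3.1, per the file headers, with positions annotated on rn4. The log10 ratio of Cy5 over Cy3 in each file was computed by that software from its background-subtracted and dye-normalized signals, per the file headers. The authors' deposited value table was taken as log2 ratios of Cy5 over Cy3. Its columns follow the log ratios of the scanner's processed signals (r at least 0.998), but r does not depend on the scale. No label states the scale of the table, and any centring is unknown.

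From the median intensities, background was corrected with normexp (offset 50), ratios were loess-normalized within arrays, and channel levels were brought to a common scale with Aquantile, in limma 3.58.1 (R 4.3.3, with the data.table package, version 1.17.8). Control spots were left out after normexp. Spots with a non-uniform local background, or one above 2 times the array's median, were left out before normexp was fitted, a choice made after seeing the data. The fit of TU over vehicle held a mean for lean and for obese arrays and shared 1 spread over all 8; obese over lean was fitted within a dye. Benjamini-Hochberg adjustment ran over all passing probes, with a threshold of 0.05. The number of arrays limits the precision. Probes were named by accession through RefSeq gene tables, 16815 by the newer and 195 by the older array annotation only, and 24002 of 41012 stayed unnamed. Of the array pairs, 0 of 28 held identical values. Scripts were tested on simulated data.

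The genes and lists were chosen with earlier results of these data known. Named list genes are, per comparison, up to 4 called genes of largest difference or, with none called, the 2 of lowest unadjusted p. Nek2 and the second probes were named after their values were seen. Alternatives covered signals, background correction, normalization, filter, probe choice, replicate block, weights, moderation, 1 genotype alone, each array left out, normexp on all spots and the median of repeat spots.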

Additional observations from a re-analysis of the deposited data

Results flagged for a closer look

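Among 90 groups of 4 arrays examined for a value far from the other 3, 5 stood out, and chance gives about 1 in 20. Both Ccnd1 probes were high on lean array 3 in vehicle rats, at 10.87 where the others lay between 9.95 and 10.10, and at 10.33 where the others lay between 9.53 and 9.56. Ccne1 stood at 8.08 on obese array 4 under TU, against 7.64 to 7.66 on the others. Cdk1 stood at 9.75 on obese array 1 under TU, against 8.54 to 8.62. The log2 ratio of the dim second Ccnb1 probe was 0.19 on obese array 2, against -0.0041 to 0.0048 on the other obese arrays.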

How the results depend on the processing

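Of 147 values of single probes, 48 were called, and 20 of these were kept under every alternative tried for them. The number of cell cycle probes called for TU over vehicle in lean rats rose from 0 to 1 with the scanner's processed signals or the authors' ratios. That call was of the dim second Ccna2 probe, whose lean values are background signal. Scaling between arrays gave 1 call, of the bright Cdkn1a probe, median centring or lean arrays alone gave 2, and array weights gave 3. Leaving out 1 array gave 0 to 2. Among all probes, 266 calls in lean rats became 3498 with median centring, 775 with scaling, 2009 with array weights, 1145 with lean arrays alone, 176 with the filter on all 8 arrays, 46 with normexp on all spots and 0 with trend and robust moderation (4046 at an unadjusted p under 0.05), and 3 to 1702 without 1 array. In obese rats the 7 calls became 208 with processed signals, 202 with the authors' ratios, 23 without background correction, 236 with median centring, 459 with scaling, 11 with the brightest probe per gene, 167 with array weights, 3 with normexp on all spots, 0 with trend and robust or with obese arrays alone (4214 and 2865 at an unadjusted p under 0.05), and 0 to 21 without 1 array. The difference in response went from 0 calls to 2 with processed signals or the authors' ratios, 870 with median centring, 3 with array weights and 1 with normexp on all spots, and 0 to 2 without 1 array. In Cy3, 7 cell cycle calls became 4 without normalization between arrays and 3 to 10 without 1 array, and 5091 calls among all probes became 2953 and 2584 to 7206. In Cy5, 6211 calls became 3944 without normalization between arrays and 9690 with array weights. The dim second Ccna2 probe, above background on 0 of 4 lean arrays in either dye, turned from -0.059 to 0.85 for TU over vehicle in lean rats, with processed signals and with the authors' ratios alike; the cause was not tested. The replicate block, fitted although the numbers were not taken as pairs, gave 27 calls in lean rats, 0 in obese rats (4503 at an unadjusted p under 0.05) and 3086 in Cy3 over all probes, and 0, 0, 0, 6 and 9 cell cycle calls in limma in lean rats, obese rats, their difference, Cy3 and Cy5. Same-numbered arrays 1 to 4 had deviations from their group means that correlated at 0.071, -0.12, 0.083 and -0.022 for ratios and at 0.63, 0.092, 0.44 and -0.037 for Cy3 levels, so not every pair deviated together. On ratio deviations 2 of the 4 numbers correlated best with themselves. Naming probes by a platform annotation table was not run. Probes near background, among them the second probes of Ccna2, Ccnb1, Cdkn1a and Mcm2 and both of Ccne2, were measured in some groups on few arrays or none, which limits their sizes.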
